A study of Mus musculus with 10 samples.

Results

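Retinoid storage and retinoic acid breakdown were followed in mouse liver through 9 genes: Cyp26a1, Cyp26b1, Lrat, Rbp4, Rarb, Dhrs3, Rdh11, Retsat and Aldh1a1. Every probe set whose platform annotation gives exactly 1 of these symbols was taken, whatever its level, which gave 12 of the 45037 probe sets on the array after control probe sets. The genes were selected on earlier results of these arrays, the log2 differences between APOE4 and APOE3 included, so their own differences between genotypes are given as a description.

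Total liver RNA from 10 female mice was measured, with 1 array per animal. In 5 animals the endogenous mouse Apoe gene had been replaced on both chromosomes by human APOE4, and in the other 5 by human APOE3, so no animal carried mouse Apoe and the mouse Apoe promoter drove the human gene in both groups. All animals had a C57BL/6 background, were 3 months old and ate a diet with 2 g/kg of cholesterol in which milk fat supplied 41% of the energy. The time on this diet is 6 weeks in the design text and 2 months in the growth protocol. Each genotype is a single line, so the allele and the rest of its line cannot be told apart, and whether animals shared a cage or litter is not given in the sources used here. The values are log2 signals per probe set made with GCRMA, which places undetected transcripts near a low floor, and values under 4 are treated here as near that floor.

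Vitamin A reaches the liver as dietary retinyl ester. Hepatocytes take it up and release retinol into blood bound to its carrier protein, while stellate cells hold the body's main store as retinyl ester in lipid droplets. Oxidation of retinol to retinal and then to retinoic acid yields the hormone that activates the nuclear retinoic acid receptors, and CYP26 enzymes hydroxylate retinoic acid for disposal. Several genes of storage and breakdown are themselves induced by retinoic acid, among them Cyp26a1, Cyp26b1, Lrat, Rarb and Dhrs3, and the question asked of these arrays is whether such genes vary together from animal to animal.

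Retinoic acid receptors bind direct repeats of a 6-base half-site near genes they induce. All 9 genes had entries among the RefSeq promoter windows of build GRCm38.p6, with 14 windows that run from 250 bases before a transcription start to 50 bases after it. Both strands were searched for the half-site AGGTCA, or the variant AGTTCA, the variant GGTTCA or the variant GGGTCA, in any combination, repeated in the same direction with 5, 2 or 1 bases between them. A repeat with 5 bases between was found in the windows of Cyp26a1 and Rarb and in those of no other member, and repeats with 2 or 1 bases between were found in none. The 100 bases before the start are shown for these 2 genes, and for Cyp26b1 and Dhrs3 because their levels lay nearest to those of Cyp26a1 across animals, with the half-sites of a repeat in capitals.
Cyp26a1: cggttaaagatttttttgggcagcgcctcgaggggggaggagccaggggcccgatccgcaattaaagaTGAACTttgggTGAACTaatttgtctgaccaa
Rarb: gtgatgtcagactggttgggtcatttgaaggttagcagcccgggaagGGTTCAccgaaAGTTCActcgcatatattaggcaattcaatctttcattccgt
Cyp26b1: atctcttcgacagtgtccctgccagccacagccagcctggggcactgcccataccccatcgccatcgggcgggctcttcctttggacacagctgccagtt
Dhrs3: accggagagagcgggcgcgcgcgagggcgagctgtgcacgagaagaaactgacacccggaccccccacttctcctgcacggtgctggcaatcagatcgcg

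The Cyp26a1 stretch is chr19:37697708-37697807 on the plus strand, and its repeat lies at positions -32 to -16 from the start, on the strand opposite to the gene. The Rarb stretch is chr14:16575477-16575576 on the minus strand, with the repeat at -53 to -37 in the direction of the gene. The stretches of Cyp26b1 (chr6:84593811-84593910, minus strand) and Dhrs3 (chr4:144892727-144892826, plus strand) hold no such repeat, which says only that these letters are not in the window. Of all 32851 promoter windows searched in the same way, 32 (0.0974%) held a repeat with 5 bases between, 88 (0.268%) one with 2 and 73 (0.222%) one with 1. These matches describe the sequence and are not measurements of binding.

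The widest variation among the members was seen in the retinoic acid hydroxylase gene Cyp26a1, and it lay in APOE4 livers. Its log2 values in APOE4 replicates 1 to 5 were 9.15, 6.81, 8.13, 6.21 and 10.86, against 6.39, 6.57, 5.95, 6.06 and 7.01 in APOE3 replicates 1 to 5. Replicates 1, 3 and 5 of APOE4 stood above every APOE3 animal and the other two lay inside the APOE3 range, so the groups overlapped. The mean was 8.23 ± 1.86 log2 in APOE4 and 6.40 ± 0.42 in APOE3 (SD, n = 5 each), a difference of 1.83 (SE 0.73) or 3.57-fold. Without APOE4 replicate 5 the difference was 1.18 log2. The highest and lowest APOE4 animals were 25.0-fold apart, and the highest and lowest APOE3 animals 2.08-fold.

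Cyp26b1, which encodes the related hydroxylase, was near the floor in every APOE3 liver. Its log2 values were 4.76, 3.40, 4.47, 4.66 and 7.05 in APOE4 replicates 1 to 5 and 3.57, 3.04, 3.51, 2.80 and 3.37 in APOE3 replicates 1 to 5. Replicate 5 of APOE4 was again the highest of all animals and replicate 1 next, while replicate 2 fell within the APOE3 range. The mean was 4.87 ± 1.33 log2 in APOE4 and 3.26 ± 0.33 in APOE3 (SD, n = 5 each). With values under 4 counted as 4, the mean was 1.98-fold higher in APOE4, and no error is given with this value. APOE4 replicate 2 was also raised to 4, so it is not a lower bound. Without APOE4 replicate 5 the difference of the deposited values was 1.06 log2, against 1.61 (SE 0.53) with it. The gene's mean over all animals was 4.06, so it passed the filter at a mean of 4 through the APOE4 livers alone.

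Both hydroxylase genes varied more between APOE4 animals than between APOE3 animals. The SD in APOE4 was 4.39 times that in APOE3 for Cyp26a1 and 4.07 times for Cyp26b1. Among the 14732 probe sets with a mean of at least 4, 75 (0.509%) had a ratio at least as large as that of Cyp26a1 and 95 (0.645%) as that of Cyp26b1, with a median ratio of 0.859. Without APOE4 replicate 5 the ratio was 3.11 for Cyp26a1, reached by 1.91% of probe sets, and 1.91 for Cyp26b1, reached by 8.45%. All APOE3 values of Cyp26b1 were under 4, so its SD in APOE3 is that of values near the floor. Cyp26b1 is among these probe sets only through its APOE4 livers, so nothing is read from its place among them. This ratio was looked at after the values were seen and was not tested.

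Rarb encodes a retinoic acid receptor that is itself a classical retinoic acid target. It was under 4 on all 10 arrays and was not tested. Its log2 values ran from 2.74 to 3.34 in APOE4 livers (median 2.93), against 2.06 to 2.87 in APOE3 livers (median 2.35). Replicates 1, 4 and 5 of APOE4 lay above all APOE3 animals and replicates 2 and 3 within their range, and no fold is given so near the floor.

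Lrat encodes the acyltransferase that esterifies retinol for storage in stellate cells, and its 2 probe sets both had a higher mean in APOE4. By probe set 1444487_at the log2 values were 8.44, 8.37, 8.02, 8.73 and 8.85 in APOE4 replicates 1 to 5 and 8.05, 8.18, 7.37, 7.77 and 7.31 in APOE3 replicates 1 to 5. APOE4 replicates 1, 2, 4 and 5 lay above all APOE3 animals, and replicate 3 lay below APOE3 replicates 1 and 2. The mean was 8.48 ± 0.32 log2 in APOE4 and 7.74 ± 0.39 in APOE3 (SD, n = 5 each), a difference of 0.75 (SE 0.21) or 1.68-fold. Without any single animal it lay between 0.64 and 0.86 log2. Probe set 1421345_at was close to the floor, from 3.74 to 4.78 log2 in APOE4 livers and from 3.34 to 4.16 in APOE3 livers, with a difference of 0.46 (SE 0.22).

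Markers of the cells that store retinoid were set beside Lrat. Of 17 stellate cell and fibroblast markers, 13 had a mean of at least 4, of which 4 had a higher and 9 a lower mean in APOE4, and 0 passed limma's test at an adjusted p of 0.05. The mean over the list ran from 6.09 to 6.75 log2 in APOE4 livers, with the lowest in replicate 5, and from 6.30 to 6.74 in APOE3 livers. The list did not move as one in APOE4 replicate 5. Col3a1 (5.93), Col1a2 (4.44), Col1a1 (2.49), Lum (6.10), Dcn (10.51) and Colec11 (10.67) were lowest of all animals there. Ecm1 (10.01) was highest of all animals there, and the other markers, with Reln at 9.36, lay in between. Reln, the stellate cell gene for reelin, averaged 9.18 ± 0.31 log2 in APOE4 and 9.18 ± 0.24 in APOE3 (SD, n = 5 each). Des, for desmin, and Gfap, for glial fibrillary acidic protein, stayed under 4 on all arrays. In RNA from whole liver, fewer cells of a type and less RNA per cell cannot be told apart.

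The carrier gene Rbp4, whose protein takes retinol from liver into blood, was the steadiest member. It ran from 13.61 to 13.78 log2 in APOE4 livers (median 13.69), against 13.57 to 13.81 in APOE3 livers (median 13.74). The difference was -0.01 log2 (SE 0.085), and its sign changed in 6 of 18 alternative settings. Of the 14732 tested probe sets, 96.8% had a larger SD within genotypes. That share is over probe sets of all levels. Rbp4 is also the member with the highest signal, and its SD was not compared with that of probe sets of similar level.

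Dhrs3 encodes the reductase that turns retinal back into retinol and so spares it from oxidation. Its log2 values were 10.47, 10.07, 10.25, 10.26 and 10.65 in APOE4 replicates 1 to 5 and 10.22, 9.88, 10.28, 10.38 and 10.26 in APOE3 replicates 1 to 5. Replicates 5 and 1 of APOE4 were the highest, as they were for both hydroxylase genes, and the remaining APOE4 animals lay among the APOE3 animals. The difference was 0.14 log2 (SE 0.13), and 0.058 without APOE3 replicate 2.

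Rdh11, which encodes a microsomal retinal reductase, differed between animals of each genotype more than between genotypes. By probe set 1418760_at it ran from 5.58 to 6.90 log2 in APOE4 livers and from 5.04 to 6.55 in APOE3 livers, with a difference of 0.26 (SE 0.31), and 0.050 without APOE4 replicate 1. By 1449209_a_at it ran from 5.00 to 6.69 log2 in APOE4 livers and from 4.75 to 6.47 in APOE3 livers, with a difference of 0.25 (SE 0.34), and 0.035 without APOE3 replicate 2. Replicate 1 was the highest of its genotype and replicate 2 the lowest in both groups and by both probe sets.

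Retsat, the gene of retinol saturase, had a higher mean in APOE4 by both of its probe sets. By 1424715_at its log2 values were 11.30, 12.04, 11.72, 12.14 and 11.58 in APOE4 replicates 1 to 5 and 11.84, 10.44, 11.38, 11.55 and 11.36 in APOE3 replicates 1 to 5. The animals were ordered otherwise than for Cyp26a1, with APOE4 replicates 4 and 2 the highest and APOE3 replicate 2 the lowest of all. The difference was 0.44 log2 (SE 0.25), and 0.23 without APOE3 replicate 2. Probe set 1424716_at gave 0.35 (SE 0.25).

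Aldh1a1 encodes a retinal dehydrogenase that makes retinoic acid. It ran from 12.70 to 13.02 log2 in APOE4 livers (median 12.78) and from 12.71 to 13.20 in APOE3 livers (median 12.92). The difference was -0.08 log2 (SE 0.11), and the groups overlapped.

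**Figure D1:**
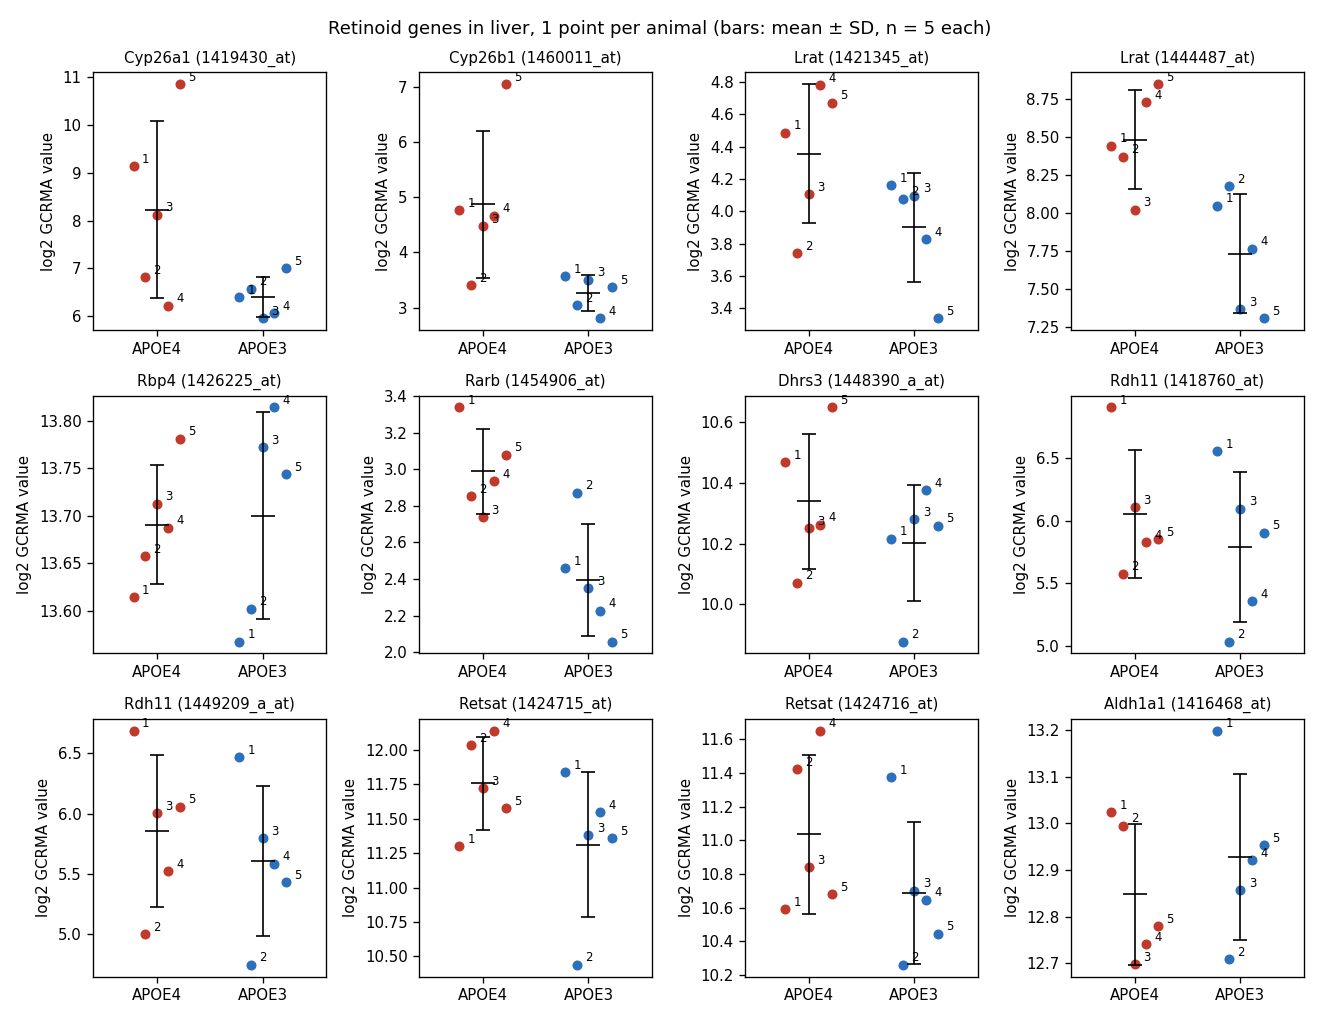
Log2 GCRMA values of the 12 member probe sets, 1 panel each, with 1 numbered point per animal (the replicate number), APOE4 in red left of APOE3 in blue, and bars for mean ± SD (n = 5 each); panels have their own scales. APOE4 replicate 5 is the highest animal for Cyp26a1 (10.86) and Cyp26b1 (7.05), and the genotypes overlap in all 12 panels.

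In the fit over the whole table, 0 of the 11 tested member probe sets passed at an adjusted p of 0.05 by limma, where 12 of 14732 probe sets (0.0815%) did. At an unadjusted p under 0.05 there were 3 members, Cyp26a1, Cyp26b1 and Lrat by 1444487_at, against 8.00% of all tested probe sets. All 3 were higher in APOE4, as were 5.53% of all tested probe sets at that p. The genotypes did not overlap in 0 of the 11, against 2.02% of all. The difference was above 0 for 9 of the 11 and below 0 for 2, with a median of 0.35 log2, while 60.9% of all tested probe sets were above 0 with a median of 0.05. These counts come from the contrast with which the members were chosen, so nothing is read from them.

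Variation within genotypes was then compared between genes, with each gene's genotype mean subtracted. This takes out the difference between means, but not the choice of members by that difference. APOE4 replicate 5 raised that difference for both Cyp26a1 and Cyp26b1. The 8 members with a mean of at least 4 entered by their probe set of highest mean, giving 28 pairs over 10 animals. Cyp26b1 entered through its APOE4 livers alone (mean 4.87, against 3.26 in APOE3), so nothing is read from the p-values of its pairs. Deviations were not scaled to the spread of each genotype. The SD was 1.86 in APOE4 and 0.42 in APOE3 for Cyp26a1, and 1.33 and 0.33 for Cyp26b1. Values of r with these 2 genes therefore rest mainly on the 5 APOE4 animals. Each r was tested against all 14400 orders of the animals within genotypes, an exact two-sided permutation test adjusted over the 28 pairs by Benjamini-Hochberg. After adjustment 0 of 28 pairs passed (lowest adjusted p = 0.464 by this exact test), and 1 pair had an unadjusted p under 0.05. With Spearman's rho 0 pairs passed after adjustment and 1 had an unadjusted p under 0.05.

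Among pairs of retinoic acid responsive genes, the hydroxylases and Dhrs3 had the highest correlations. Cyp26a1 and Cyp26b1 had r = 0.79 (exact permutation p = 0.082, adjusted 0.464) and rho = 0.53 (exact permutation p = 0.162, adjusted 0.800). Cyp26b1 and Dhrs3 had r = 0.70 (exact permutation p = 0.032, adjusted 0.464) and rho = 0.50 (exact permutation p = 0.171, adjusted 0.800). Cyp26a1 and Dhrs3 had r = 0.61 (exact permutation p = 0.099, adjusted 0.464) and rho = 0.42 (exact permutation p = 0.287, adjusted 0.880). All 5 APOE3 values of Cyp26b1 lie under 4, and their deviations are of values near the floor. With values under 4 set to 4, its r was 0.81 with Cyp26a1 (exact permutation p = 0.067, adjusted 0.464) and 0.68 with Dhrs3 (exact permutation p = 0.0083, adjusted 0.233). All its APOE3 values are then equal, so only the 5 APOE4 animals enter these 2 values of r. The smallest p that this permutation test can give is then 0.0083, so neither pair could pass after adjustment alone. In each of the 3 pairs the ranks were less alike than the values, and APOE4 replicate 5 was the highest animal for all 3 genes.

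These values moved with that animal. Without APOE4 replicate 5, r was 0.35 for Cyp26a1 and Cyp26b1, 0.30 for Cyp26a1 and Dhrs3, and 0.48 for Cyp26b1 and Dhrs3. Without the 2 animals farthest from the median of the gene named first, r was 0.76 for Cyp26a1 and Cyp26b1 (exact permutation p = 0.149), 0.39 for Cyp26a1 and Dhrs3 (exact permutation p = 0.442) and 0.17 for Cyp26b1 and Dhrs3 (exact permutation p = 0.810). APOE4 replicate 5 was among the animals left out in each of these, beside replicate 4 where Cyp26a1 came first and replicate 2 where Cyp26b1 did. The relation of Cyp26b1 and Dhrs3 thus rested on those 2 animals. That of Cyp26a1 and Dhrs3 was 0.65 without replicate 4 alone, so it moved with replicate 5. For Cyp26a1 and Cyp26b1, leaving out APOE4 replicate 4 alone gave r = 0.92. No batch, slide or scan date is given in the labels, so no within-batch value could be had.

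Lrat, which retinoic acid also induces, had lower correlations with the same genes within genotypes. Its r was 0.15 with Cyp26a1 (exact permutation p = 0.682, adjusted 0.846; rho = 0.24), 0.34 with Cyp26b1 (exact permutation p = 0.346, adjusted 0.807; rho = 0.26) and -0.05 with Dhrs3 (exact permutation p = 0.895, adjusted 0.964; rho = 0.04). With genotype means kept, r was 0.54 with Cyp26a1 and 0.68 with Cyp26b1. Those values include the differences between genotype means, by which the genes were selected, and 0 of 28 pairs passed after adjustment, with 4 at an unadjusted p under 0.05 (lowest adjusted p = 0.129 by permutation, for Cyp26a1 and Cyp26b1 at r = 0.87).

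**Figure D2:**
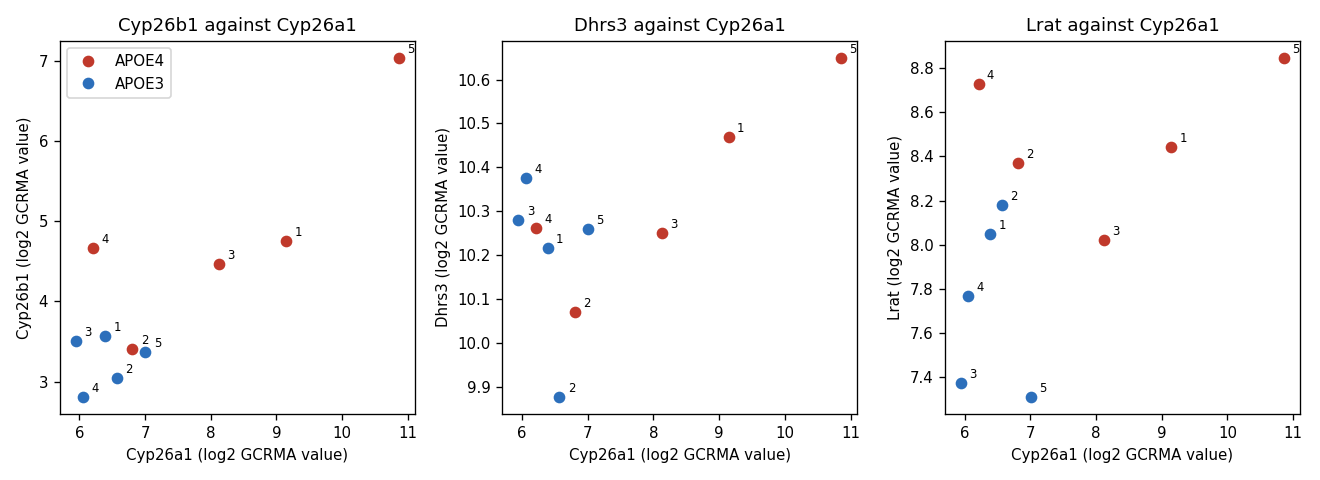
Log2 GCRMA values of Cyp26b1, Dhrs3 and Lrat (probe set 1444487_at) on the y axes against Cyp26a1 on the x axis, with 1 numbered point per animal, APOE4 in red and APOE3 in blue. APOE4 replicate 5 is at the upper right in each panel, and APOE4 replicate 4 has a low Cyp26a1 value (6.21) with a high Lrat value (8.73).

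Outside the retinoic acid responsive genes, Retsat lay opposite to Cyp26a1 within genotypes, with r = -0.48 (exact permutation p = 0.077, adjusted 0.464) and rho = -0.68 (exact permutation p = 0.0496, adjusted 0.651). This r was -0.50 without the 2 farthest animals. Rdh11 and Aldh1a1 had r = 0.63 (exact permutation p = 0.072, adjusted 0.464; rho = 0.52), which fell to 0.07 without APOE4 replicate 1 and APOE3 replicate 1. Rbp4 and Dhrs3 had r = 0.57 (exact permutation p = 0.088, adjusted 0.464; rho = 0.64). The 6 pairs among Cyp26a1, Cyp26b1, Lrat and Dhrs3 had a median r of 0.47, and the other 22 pairs one of 0.17, a difference that was not tested. Without APOE4 replicate 5 both medians were 0.13.

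**Figure D3:**
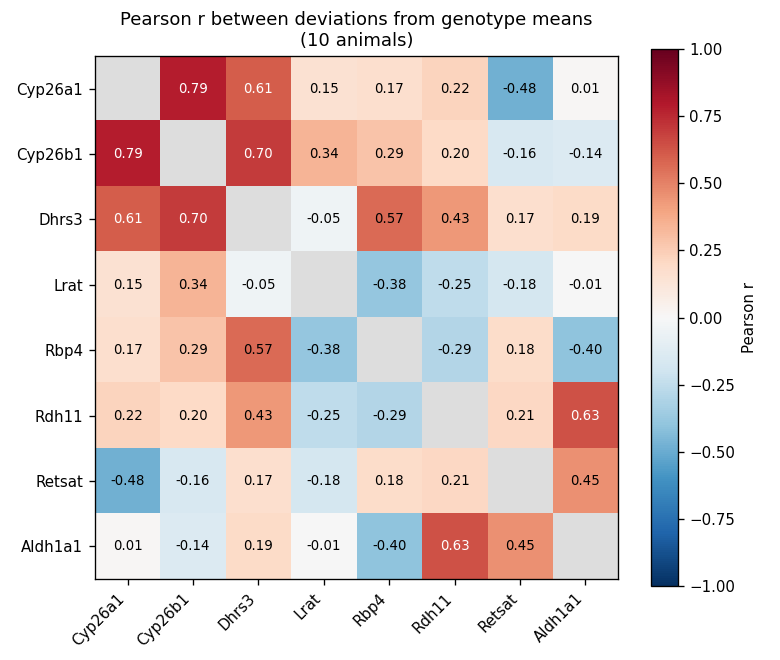
Pearson r between the 8 members with a mean of at least 4, across 10 animals after subtraction of genotype means, from blue (negative) to red (positive). The values among Cyp26a1, Cyp26b1 and Dhrs3 are 0.79, 0.70 and 0.61, and Retsat with Cyp26a1 is -0.48.

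Probe sets of the same gene show how closely repeat readings of a transcript ran on these arrays. The 2 probe sets of Rdh11 had r = 0.90 (exact permutation p = 0.0014, adjusted over 3 genes 0.0042; rho = 0.84). Those of Retsat had r = 0.84 (exact permutation p = 0.0074, adjusted 0.011; rho = 0.96). Those of Lrat, of which 1 lies near the floor, had r = 0.65 (exact permutation p = 0.052, adjusted 0.052; rho = 0.65).

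Cyp26a1 was also set against the 14731 other tested probe sets, again with genotype means subtracted. Of these, 97 (0.658%) had a higher r to Cyp26a1 than Cyp26b1 did, and 779 (5.29%) a higher r than Dhrs3. These ranks rested on APOE4 replicate 5, without which 21.3% of probe sets had a higher r than Cyp26b1 and 25.1% a higher r than Dhrs3. Cyp26b1 is among the tested probe sets only through its APOE4 livers, so nothing is read from its rank. Lrat by 1444487_at was exceeded by 36.2%, and by 73.8% without APOE4 replicate 5. Retsat by 1424716_at (r = -0.69) was exceeded by 98.6% of probe sets, and by 97.5% without it. In the further retinoid list described below, Dgat1 (r = 0.80) lay above Cyp26b1 and Adh1 (0.63) above Dhrs3. The 3 known retinoic acid targets tested from that list had r = 0.18 (Tgm2), -0.10 (Nrip1) and 0.20 (Rarres2). These 5 values are given over all 10 animals only and were not tested.

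The 5 named genes most like Cyp26a1 were Lman1, the cargo receptor between endoplasmic reticulum and Golgi (r = 0.94), Cog1, a subunit of the Golgi tethering complex (0.93), Sars, the cytosolic seryl-tRNA synthetase (0.91), Trabd (0.91) and Dhdds, a dolichol synthesis enzyme (0.91). Without APOE4 replicate 5 their r lay between 0.78 for Trabd and 0.87 for Cog1. The 3 most opposite were Plxnb3, a semaphorin receptor gene (-0.93), Nhlrc3 (-0.93) and Etf1, the translation termination factor (-0.91). Their probe sets include some that the array's design marks as shared between transcripts. They are the extremes of 13340 named probe sets over 10 animals and are given without a test.

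**Figure D4:**
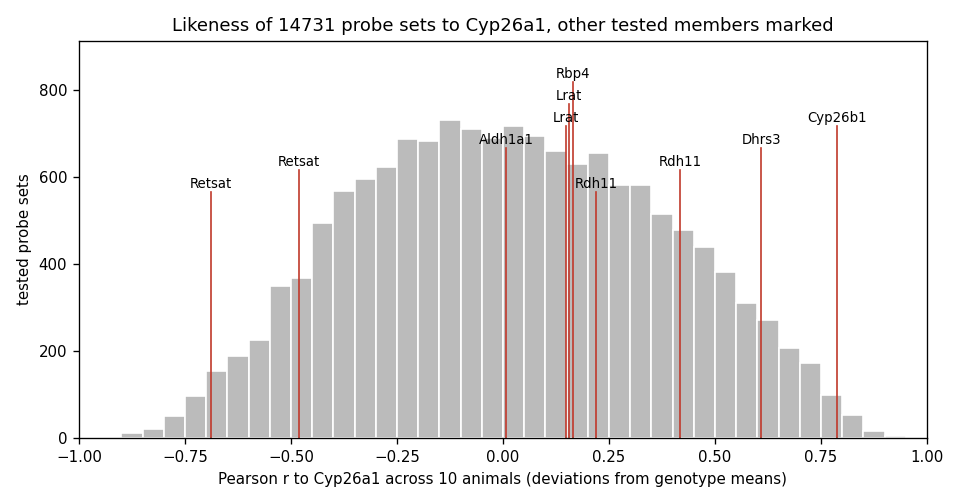
Number of tested probe sets (y axis) by their Pearson r to Cyp26a1 across 10 animals after subtraction of genotype means (x axis), with the other tested member probe sets marked in red. Cyp26b1 (r = 0.79) and Dhrs3 (0.61) lie at the right, and the 2 probe sets of Retsat (-0.48 and -0.69) at the left.

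The rest of the retinoid pathway was described by a further list of 46 genes, of which 43 are named on the array and 27 had a mean of at least 4. By limma 0 of the 27 passed at an adjusted p of 0.05 and 2 had an unadjusted p under 0.05, against the 8.00% of all tested probe sets given above. The difference was above 0 in 18 and below 0 in 9, with a median of 0.07 log2, close to the 0.05 of all tested probe sets.

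Among the 11 tested oxidoreductases of retinol and retinal, Rdh13, which lies in mitochondria, averaged 4.51 ± 0.24 log2 in APOE4 and 4.12 ± 0.22 in APOE3 (SD, n = 5 each; adjusted p = 0.580 by limma). Rdh10, which oxidises retinol on the way to retinoic acid, differed by 0.18 log2 (SE 0.13) and Dhrs4, a peroxisomal carbonyl reductase, by 0.15 (SE 0.13). Of the receptors, Rxrb, a retinoid X receptor that pairs with retinoic acid receptors, averaged 7.40 ± 0.20 log2 in APOE4 and 7.15 ± 0.12 in APOE3 (SD, n = 5 each; adjusted p = 0.612 by limma), and its relative Rxrg differed by 0.20 (SE 0.19). Cyp2c39, a mouse hydroxylase of retinoic acid, was at 4.70 ± 0.22 log2 in APOE4 and 4.37 ± 0.53 in APOE3 (SD, n = 5 each; adjusted p = 0.733 by limma).

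Of genes for release and targets, Lpl, the lipoprotein lipase that can free retinol from chylomicron retinyl ester, differed by -0.45 log2 (SE 0.42). Tgm2, the transglutaminase gene known as a retinoic acid target, differed by 0.14 (SE 0.15). The 2 carriers tested, the transthyretin gene Ttr and the retinol transporter gene Stra6l, were at -0.02 and -0.05.

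**Figure D5:**
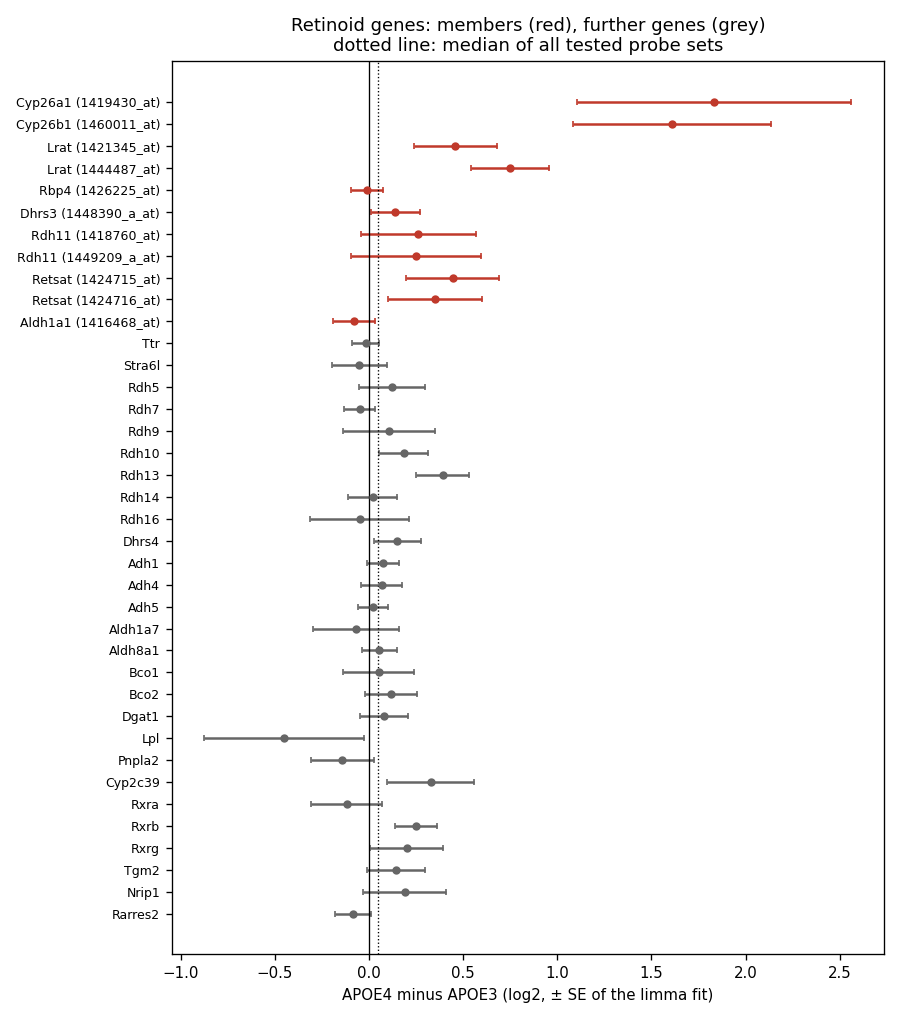
Difference of APOE4 minus APOE3 in log2 units (x axis) with the SE of the limma fit, for the 11 tested member probe sets (red) and the 27 tested further retinoid genes (grey); the dotted line is the median of all tested probe sets (0.05). Cyp26a1 (1.83) and Cyp26b1 (1.61) lie farthest to the right; all APOE3 values of Cyp26b1 are under 4, and its difference is 0.99 with values under 4 set to 4.

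The tissue label was checked on marker genes. Hepatocyte markers averaged 13.06 to 13.33 log2 over their 10 genes in APOE4 livers and 12.93 to 13.43 in APOE3 livers, and markers of cholangiocytes (4 genes) and adipocytes (3 genes) averaged at most 3.11. Lymphocyte markers (5 genes) averaged at most 3.98, with Ptprc at 7.38 in APOE4 and 7.79 in APOE3. Of 2 exocrine pancreas markers, Cpa1 stayed under 4, and Cela1 averaged 8.58 in APOE4 and 8.41 in APOE3. Kupffer cell and macrophage markers ranged over 7.74 to 8.65 log2 in APOE4 livers and 7.91 to 9.77 in APOE3 livers, with APOE3 replicate 4 the highest. Of these 11 markers 1 had a higher and 10 a lower mean in APOE4, and 0 passed limma's test at an adjusted p of 0.05. Without that animal the difference of Cyp26a1 was 1.75 log2, and the part of these cells in the members' values was not tested.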

How the data were processed

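The authors deposited log2 values, 1 per probe set and array; the submitters' processing notes name GCRMA 2.12.1 and R 2.7.1. The sources used here give no genome build. Control probe sets (64) were left out. Probe sets with a mean of at least 4 over all 10 arrays (14732) were fitted with limma 3.58.1 in R 4.3.3, APOE4 against APOE3, without covariate, and p-values adjusted by Benjamini-Hochberg over all of them. SD, SE and n describe animals, and with 5 arrays a group the precision is limited by their number. Correlations used numpy 2.4.6 and Python 3.11.15, with permutations of animals within genotype, or 100000 resamples over all animals where genotype means were kept. Both procedures were tested on simulated data. Symbols came from the platform annotation and promoter sequences from RefSeq, build GRCm38.p6.

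Named were every probe set of the 9 members, up to 8 further retinoid genes with the smallest p, and the 5 genes most and 3 least like Cyp26a1. Ttr and Stra6l are named besides as the only carriers tested. Dgat1 and Adh1 are named for their r to Cyp26a1, and Nrip1 and Rarres2 as the other known targets tested. Members and lists were chosen with earlier results of these data known. Replicate numbers were taken as names: same-numbered animals' deviations correlated from -0.08 to 0.41, so they were not treated as pairs. APOE4 replicates 3 and 5 were each most like the APOE3 animal of their own number, while replicates 1, 2 and 4 were not. A link between same-numbered animals is thus not excluded. With replicate number as a block in the fit, the SE of Rdh11 fell from 0.31 to 0.13 by 1418760_at and from 0.34 to 0.12 by 1449209_a_at. The SE of Cyp26a1 fell from 0.73 to 0.54, and replicate 5 was its highest animal in each genotype (10.86 in APOE4 and 7.01 in APOE3). The SE rose for Rbp4, Retsat and the Lrat probe set near the floor, and fell for the other tested member probe sets. Permutations within genotype assume no link between same-numbered animals, which was not tested for single genes. Alternatives covered the filter, the fit, scaling, a floor at 4, the replicate block, other probe sets and each animal left out; the SD ratios, ranks of likeness and median r without APOE4 replicate 5 were added after seeing the data.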

Additional observations from a re-analysis of the deposited data

How the results depend on the processing

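The count of member probe sets past the adjusted threshold was 0 in all 18 alternative fits, the replicate block included (0), and the count of pairs past it was 0 in all 16. Of all tested probe sets, 11 to 15 passed in the alternatives other than leaving out an animal, except with the filter at a mean of 6, where 5 of 9648 tested passed against 12, and 8 to 14 passed without 1 animal; with the replicate block it was 11. Wherever the 11 member differences were tested, only that of Rbp4 changed sign. Changing the filter or adding the replicate block cannot move a difference. Without 1 animal the difference of Cyp26a1 lay between 1.18 and 2.34 log2. That of Rdh11 by 1449209_a_at lay between 0.035 and 0.46. Cyp26b1 was not tested without APOE4 replicate 1, 4 or 5 or with the filter at 6, where its mean fell short.

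Leaving out 1 animal gave an r of 0.35 to 0.92 for Cyp26a1 and Cyp26b1, 0.30 to 0.82 for Cyp26a1 and Dhrs3, 0.48 to 0.83 for Cyp26b1 and Dhrs3, -0.26 to 0.41 for Cyp26a1 and Lrat, -0.042 to 0.44 for Cyp26b1 and Lrat and -0.38 to 0.37 for Lrat and Dhrs3. The r of Lrat and Dhrs3 (-0.05) became 0.24 with genotype means kept, 0.14 with probe sets averaged and 0.31 without the 2 farthest animals, where that of Cyp26b1 and Lrat became -0.12; the causes were not tested.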
